A study of Mus musculus with 2 samples.

Results

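The mouse let-7 microRNA family was taken here as the 12 genes of the deposited tables with a Mirlet7 or Mir98 symbol. Of these, 9 lie outside the clusters with miR-99, miR-100 or miR-125, and these 9 are described here. They are Mirlet7g, Mirlet7i, Mirlet7d, Mirlet7a-1, Mirlet7f-1, Mirlet7b, Mirlet7c-2, Mirlet7f-2 and Mir98. They were chosen by gene symbol, by a rule that uses no measured value but was set with earlier results of these data known. All 9 were found by Ensembl identifier among 2202 gene rows. The other 3, Mirlet7a-2, Mirlet7c-1 and Mirlet7e, are clustered and serve as a comparison. Small RNAs with inserts under 30 nt were sequenced from gastrocnemius, the large calf muscle, of male B6CASTF1/J mice aged 2 months. B6CASTF1/J mice are the first-generation offspring of C57BL/6J and CAST/EiJ parents. The labels give no treatment and no second genotype, so both libraries, replicate 1 and replicate 2, form 1 group. The labels call them biological replicates and number the males separately, but give both the same donor identifier.

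MicroRNAs are cut from hairpin precursors by Drosha and Dicer and guide Argonaute proteins to messenger RNAs that pair with their seed, the bases near the 5′ end. Most let-7 precursors are blocked by the stem cell protein LIN28, and mature let-7 is abundant in differentiated tissue. Its known targets include Hmga2, Lin28 and Ras transcripts, and in mouse muscle the LIN28 and let-7 axis is known to act on glucose handling. The family has many gene copies, and copies at different places can encode the same mature sequence. None of LIN28, its partners or the messenger RNA targets was measured in these tables, which hold microRNA genes.

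The mature 5p arms are shown first, because what a count table can say about a let-7 gene depends on whether its arm occurs elsewhere. All are printed 5′ to 3′ from RefSeq on GRCm38.p6, the assembly called mm10 in the files, with the seed, bases 2 to 8, in capitals. All 9 genes matched RefSeq, with the same coordinates as in GENCODE M21.
let-7g-5p: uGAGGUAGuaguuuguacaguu
let-7i-5p: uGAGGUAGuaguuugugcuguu
let-7d-5p: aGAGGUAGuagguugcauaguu
let-7b-5p: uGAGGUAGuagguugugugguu
let-7f-5p: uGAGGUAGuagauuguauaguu
miR-98-5p: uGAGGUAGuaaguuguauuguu
let-7c-5p: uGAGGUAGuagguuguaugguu
let-7a-5p: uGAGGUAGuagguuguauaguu

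The 9 genes encode 8 different 5p arms of 22 bases, since Mirlet7f-1 and Mirlet7f-2 encode the same arm. All 8 carry the seed GAGGUAG, which 13 of 1738 mature entries in RefSeq have (0.748%). Over the 8 arms, 15 of the 22 positions hold the same base, among them positions 2 to 10. Counted from 1 at the 5′ end and with let-7a-5p first, let-7f-5p differs by G12A and let-7c-5p by A19G. The other 5 arms differ from it at more positions: let-7b-5p by A17G and A19G, let-7d-5p by U1A and U16C, let-7g-5p by G12U and U18C, miR-98-5p by G11A and A19U, and let-7i-5p by G12U, A17G, U18C and A19U. Mir1961 and Mir7k have the same seed but had 0 counts in both libraries, as did Mir202, which some classifications place in the family. A count of 0 allows up to 4.70 CPM in replicate 1 and 1.32 in replicate 2, where CPM is the count per 1000000 counts assigned to genes in the library and the limit covers counting error only.

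The 5p arms of Mirlet7g, Mirlet7i, Mirlet7d, Mirlet7b and Mir98 were found, apart from their host transcripts, in no other annotated transcript on either strand. The arms of the other 4 members occur in another let-7 gene as well. Mirlet7a-1 shares its arm with the clustered Mirlet7a-2, Mirlet7c-2 with the clustered Mirlet7c-1, and Mirlet7f-1 with Mirlet7f-2. Mirlet7a-1 and Mirlet7c-2 also encode the same 3p arm, so both of their arms occur elsewhere, whereas Mirlet7f-1 and Mirlet7f-2 each have a 3p arm of their own. The longest run shared with a microRNA gene at another place was 26 bases for Mirlet7a-1 and Mirlet7c-2, 22 for Mirlet7f-1 and Mirlet7f-2, and between 14 and 19 for the remaining 5. Reads that match several places made up 75.2% of all reads in replicate 1 and 74.4% in replicate 2, and they are in no gene's count.

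The pairs that share a 5p arm part just behind it, and the same arms are therefore shown with the 6 hairpin bases that follow in capitals.
Mirlet7f-1: ugagguaguagauuguauaguuGUGGGG
Mirlet7f-2: ugagguaguagauuguauaguuUUAGGG
Mirlet7a-1: ugagguaguagguuguauaguuUUAGGG
Mirlet7a-2: ugagguaguagguuguauaguuUAGAGU
Mirlet7c-2: ugagguaguagguuguaugguuUUGGGC
Mirlet7c-1: ugagguaguagguuguaugguuUAGAGU

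Counted from the first base of the arm, Mirlet7f-1 and Mirlet7f-2 first differ at position 23, and the let-7a and let-7c pairs at position 24. In each of the 3 pairs the base before the arm also differs. An exactly matching read of the 22 bases alone therefore fits both genes of a pair and is in neither count. The counts of these genes come from other reads, such as longer ones or those of a 3p arm, and the tables do not say which. These counts are no measure of mature let-7a, let-7c or let-7f.

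The 9 genes lie at 5 places in the genome (mm10). Mirlet7g (ENSMUSG00000065440.1), at chr9:106178840-106178927 on the plus strand, lies in an intron of Wdr82, which encodes a subunit of histone methyltransferase complexes. Mirlet7i (ENSMUSG00000065406.3), at chr10:122985640-122985724 on the minus strand, lies in an exon of the transcribed pseudogene D630033A02Rik. On chromosome 13, on the minus strand, Mirlet7a-1 (ENSMUSG00000065421.3, 48538179 to 48538272), Mirlet7f-1 (ENSMUSG00000105621.1, 48537829 to 48537917) and Mirlet7d (ENSMUSG00000065453.1, 48536012 to 48536114) follow each other inside exons of the long noncoding RNA 6720427I07Rik. They are 261 and 1714 bases apart. On chromosome 15, on the plus strand, Mirlet7c-2 (ENSMUSG00000065608.1, 85706603 to 85706697) and Mirlet7b (ENSMUSG00000065564.1, 85707319 to 85707403) lie 621 bases apart in exons of the noncoding RNA Lncppara. On the X chromosome, on the plus strand, Mirlet7f-2 (ENSMUSG00000065602.1, 151912346 to 151912428) and Mir98 (ENSMUSG00000065536.2, 151913214 to 151913321) lie 785 bases apart in introns of Huwe1, a ubiquitin ligase gene. All hosts are on the same strand as their microRNAs. No other gene of the tables lies within 10 kb on that strand.

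Replicate 1 held 638779 counts assigned to genes and replicate 2 held 2272132, which is 3.56 times as many, so replicate 2 gives the narrower intervals. Markers of muscle, vessels and blood were present. All 9 striated muscle microRNA genes had counts and summed to 22884 CPM in replicate 1 and 52158 in replicate 2. Mir206 carried most of that sum, with 20325 and 48078 CPM. By the test between libraries described further on, Mir206, Mir486, Mir499 and Mir208b were higher in replicate 2, and the other 5, Mir1a-1, Mir1a-2, Mir133a-1, Mir133a-2 and Mir133b, did not pass. The smooth muscle genes summed to 123068 and 81451 CPM, the endothelial gene Mir126a to 81286 and 129798, and the erythroid genes to 6176 and 4688. The 4 leukocyte genes summed to 2542 and 2889 CPM, the 7 epithelial genes to 225 and 215, and the liver gene Mir122 had 15.7 and 29.9. Of 6 neural genes, 5 were at 0 in both libraries. These sums leave out multi-mapping reads. In a bulk sample, more cells of a type and more RNA per cell cannot be told apart.

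The 9 genes together were a large part of the assigned counts. Their share was 12.0% in replicate 1 (exact Clopper-Pearson 95% interval 11.9 to 12.1%) and 12.3% in replicate 2 (12.3 to 12.4%), or 12.2% ± 0.207 (SD, n = 2). Intervals cover counting error only, since reads copied by PCR are not independent molecules. Of the counts of all 12 let-7 genes, they held 98.5% in replicate 1 and 98.6% in replicate 2. The 3 clustered genes together had 1785 and 1811 CPM. Of these, Mirlet7a-2 and Mirlet7c-1, like 4 of the members, have shared 5p arms, and exact reads of those arms are not counted. The shares are therefore of assigned counts, not of mature let-7.

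Mirlet7g was the most abundant let-7 gene by assigned reads. It had 44392 CPM in replicate 1 and 45722 in replicate 2 (45057 ± 940, SD, n = 2), from 28357 and 103886 counts. By mean it ranked sixth over all gene rows, with rank 6 in replicate 1 and 8 in replicate 2. Mirlet7i followed with 37296 and 36837 CPM (37067 ± 325), from 23824 and 83699 counts. The order of Mirlet7g over Mirlet7i held in each library, by 1.19-fold in replicate 1 and 1.24-fold in replicate 2. Their 3p arms, like their 5p arms, are their own. Genes outside the family with the most similar levels were Mir26b, Mir23b and Mir30a for Mirlet7g, at distances of 0.163, 0.223 and 0.427, and Mir30a, Mir26b and Mir99a for Mirlet7i, at 0.149, 0.331 and 0.422. The distance is Euclidean on log2(CPM + 1) over the 2 libraries, so it mostly reflects level. Mir26b had 39663 and 45952 CPM and Mir30a 40421 and 34518, in replicates 1 and 2.

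Mirlet7d reached 19260 CPM in replicate 1 and 18832 in replicate 2 (19046 ± 303, SD, n = 2). Its arm is the only 1 of the 8 that differs at position 1 (U1A against let-7a-5p). Mirlet7b had 12597 and 14059 CPM (13328 ± 1033). These 4 genes, from 4 different places, all exceeded 10000 CPM. The first 3 alone, Mirlet7g, Mirlet7i and Mirlet7d, gave 84.0% of the members' counts in replicate 1 and 82.3% in replicate 2.

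Below them came the Huwe1 pair. Mirlet7f-2 stood at 4302 CPM in replicate 1 and 5277 in replicate 2 (4789 ± 689, SD, n = 2), and Mir98 had 1594 and 1653 (1623 ± 41.7). Mir98 is thus below Mirlet7f-2 in both libraries, although its 5p arm occurs nowhere else and that of Mirlet7f-2 does. The lowest levels were those of Mirlet7c-2, with 460 and 447 CPM (453 ± 9.57), Mirlet7a-1, with 182 and 179 CPM (180 ± 1.75), and Mirlet7f-1, with 122 and 127 CPM (124.7 ± 3.60). Mirlet7f-1 rested on 78 counts in replicate 1 and 289 in replicate 2, Mirlet7a-1 on 116 and 407, and Mirlet7c-2 on 294 and 1015.

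The libraries of neighbours in this order did not overlap for any of the 8 steps from Mirlet7g down to Mirlet7f-1. Counting intervals overlapped at 1 step, between Mirlet7a-1 and Mirlet7f-1: in replicate 1 they reached from 150 to 218 CPM for Mirlet7a-1 and from 96.5 to 152 CPM for Mirlet7f-1. The order was the same per 100 bases of annotated gene. The order was not tested.

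**Figure D1:**
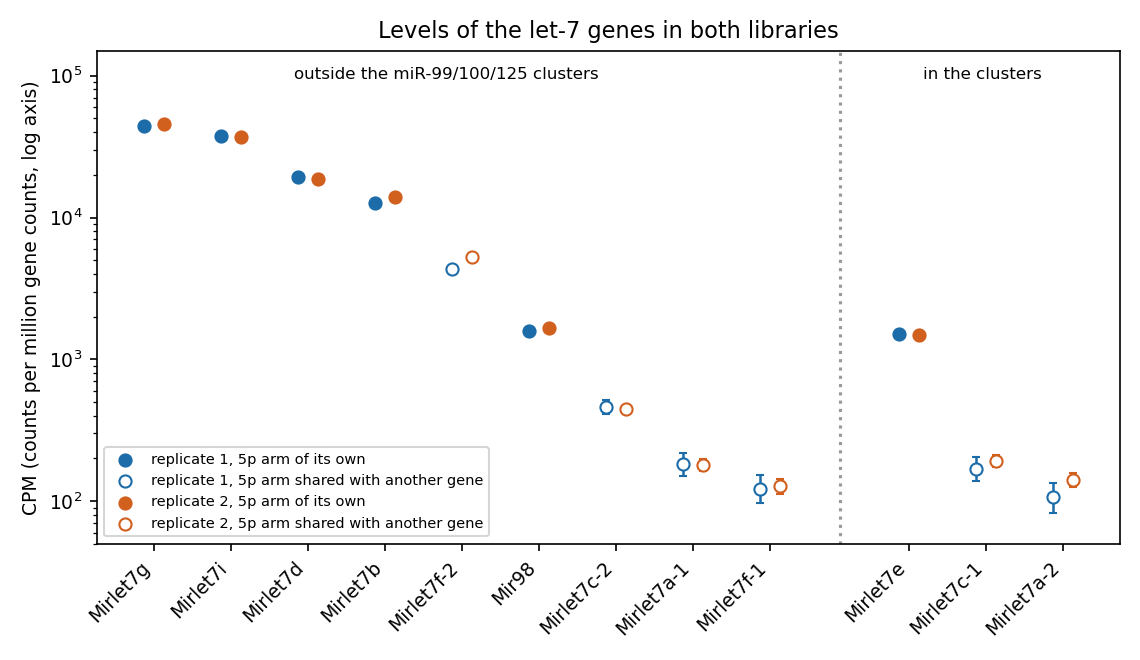
CPM of each let-7 gene on a log axis, replicate 1 in blue and replicate 2 in orange, with 95% Clopper-Pearson intervals; filled points mark genes whose 5p arm is their own and open points those whose arm another gene holds. The members fall from about 45057 CPM for Mirlet7g to 124.7 for Mirlet7f-1, and the 3 clustered genes, right of the dotted line, lie between 123 and 1494 CPM.

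Levels and arm sharing ran side by side with 1 exception. The 5 members with a 5p arm of their own had mean levels from 1623 to 45057 CPM and gave 95.8% of the members' counts in replicate 1 and 95.1% in replicate 2. The 4 members with a shared arm had mean levels from 124.7 to 4789 CPM. Mirlet7f-2 is the exception, as the sole gene with a shared arm above Mir98. Among the clustered genes, Mirlet7e, whose arm is its own, had 1494 ± 21.1 CPM (SD, n = 2), against 180 ± 15.8 for Mirlet7c-1 and 123 ± 24.0 for Mirlet7a-2, whose arms are shared. How much of these differences comes from reads that are not counted was not tested, since the tables give multi-mapping reads as a total.

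Within the pairs that share an arm, the counts were unequal. Mirlet7f-2 had 35.2 times the counts of Mirlet7f-1 in replicate 1 and 41.5 times in replicate 2. Mirlet7c-2 had 2.72 and 2.33 times those of Mirlet7c-1, and Mirlet7a-1 had 1.71 and 1.28 times those of Mirlet7a-2. The gap between the let-7f genes is thus the widest of the 3 pairs in both libraries. The let-7f hairpins are also the ones that part directly after the arm. Any link between this sequence and the gap was not tested.

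Genes that lie side by side in the same host also differed in assigned counts. At the 6720427I07Rik locus, Mirlet7d gave 98.4% of the counts of the 3 genes in both libraries (98.2 to 98.7% in replicate 1, 98.3 to 98.5% in replicate 2). Mirlet7a-1 gave 0.928% and 0.936%, and Mirlet7f-1 0.624% and 0.665%, with overlapping intervals. These intervals thus showed no difference between the libraries in the division of counts within this locus. At the Lncppara locus, Mirlet7b gave 96.5% (96.1 to 96.9%) in replicate 1 and 96.9% (96.7 to 97.1%) in replicate 2, again with overlapping intervals. Overlap does not show that the shares are equal, and the difference was not tested. In the Huwe1 intron pair, Mirlet7f-2 gave 73.0% (71.5 to 74.4%) in replicate 1 and 76.2% (75.5 to 76.8%) in replicate 2. There the intervals did not overlap, so the proportion of Mirlet7f-2 to Mir98 differed between the libraries by more than counting error. At these places Mirlet7d, Mirlet7b and Mir98 have a 5p arm of their own. The other genes have a shared arm, and exact reads of it are not counted. The part of uncounted reads in these differences was not tested.

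**Figure D2:**
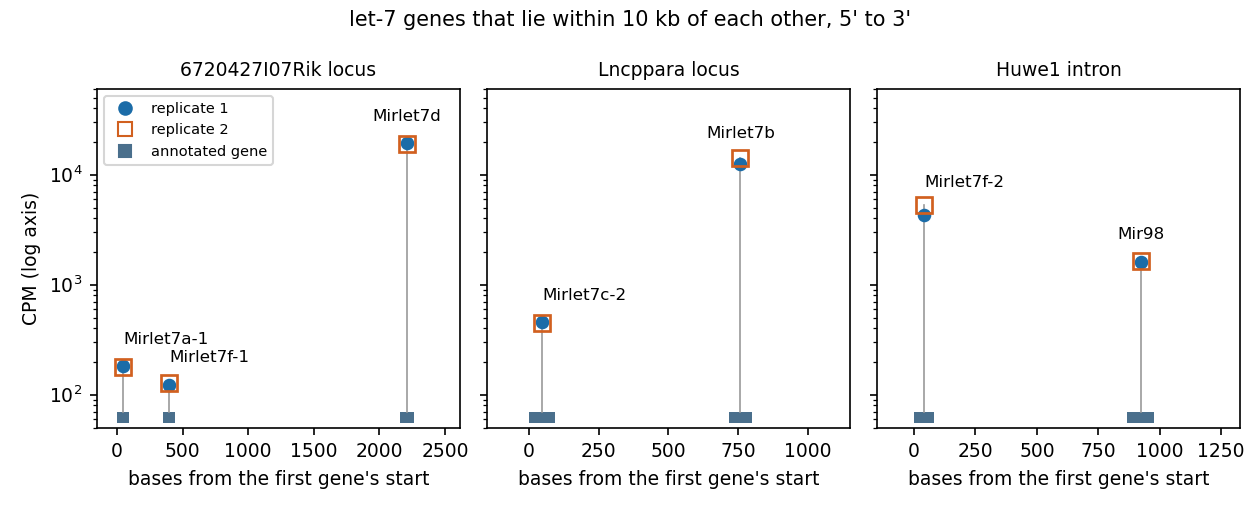
The 3 places with more than 1 member, drawn 5′ to 3′ with distance in bases from the start of the first gene; boxes at the bottom are the annotated genes, and circles and squares give the CPM of replicates 1 and 2 on a log axis. Mirlet7d stands above Mirlet7a-1 and Mirlet7f-1, Mirlet7b above Mirlet7c-2, and Mirlet7f-2 above Mir98.

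The share of the let-7 gene in the assigned counts was also taken in the clusters with miR-99, miR-100 and miR-125, over unlike sums. Mirlet7c-1 made up 0.600% of its counts with Mir99a in replicate 1 and 0.550% in replicate 2, and Mirlet7a-2 0.959% and 0.799% of those with Mir100. Mirlet7e gave 28.3% and 22.6% of the counts it has with Mir99b and Mir125a.

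The hairpins were read for GGAG, the motif in the terminal loop that the zinc knuckles of LIN28 bind. The whole hairpin of Mirlet7g shows the layout, with both mature arms in capitals and the loop between them.
Mirlet7g: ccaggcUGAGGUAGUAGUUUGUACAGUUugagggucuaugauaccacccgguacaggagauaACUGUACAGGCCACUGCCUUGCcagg

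Between the arms, GGAG occurs in 6 of the 9 members and in the 3 clustered genes. It occurs there in 52 of 644 hairpins with both arms in RefSeq (8.07%). The search used these 4 letters on the RNA strand alone. The loops of Mirlet7i, Mirlet7d and Mirlet7f-2, with the motif in capitals, are set beside those of Mirlet7b and Mirlet7c-2, in which it was not found.
Mirlet7i: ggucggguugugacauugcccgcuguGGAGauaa
Mirlet7d: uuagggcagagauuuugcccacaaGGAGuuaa
Mirlet7f-2: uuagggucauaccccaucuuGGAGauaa
Mirlet7b: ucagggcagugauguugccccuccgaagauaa
Mirlet7c-2: uugggcucugccccgcucugcgguaa

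Levels of genes with and without the motif overlapped. Members with it spanned 124.7 CPM (Mirlet7f-1) to 45057 CPM (Mirlet7g), and those without it 453 CPM (Mirlet7c-2) to 13328 CPM (Mirlet7b). A match to 4 letters is a description of the sequence, and no statement about LIN28 follows from it.

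The only comparison the design allows is between the libraries. Replicate 2 was set against replicate 1 by an exact two-sided binomial test with Benjamini-Hochberg adjustment over 311 genes with 10 or more counts. It compares 2 libraries against counting error, not conditions, and does not measure the spread between mice. All 9 members passed the count filter. Of them, 3 were higher in replicate 2, none was lower and 6 did not pass. This compares with 40.5% of all tested genes in either direction, 23.2% higher and 17.4% lower, and with 66.4% of the 146 tested genes with a mean of 100 CPM or more.

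Mirlet7f-2 was 1.23-fold higher in replicate 2 (95% interval of counting error 1.18 to 1.28, adjusted p = 6.52e-22, exact binomial test). Mirlet7b was 1.12-fold higher (1.09 to 1.14, adjusted p = 5.35e-18, exact binomial test), and Mirlet7g 1.03-fold (1.02 to 1.04, adjusted p = 4.90e-05, exact binomial test). The interval of Mirlet7g is narrow at 28357 and 103886 counts, and its ratio changed direction under another scaling (below 1 with TMM, log2 ratio -0.041, adjusted p = 0.000109, exact binomial test). The sum of the striated muscle markers, mostly Mir206, and the endothelial gene Mir126a were also higher in replicate 2 and the smooth muscle sum was lower, and their part in these differences was not tested.

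The other 6 members had ratios from 0.971 to 1.04. Mirlet7i stood at 0.988 (0.974 to 1.002) and Mirlet7d at 0.978 (0.958 to 0.998, adjusted p = 0.0688, exact binomial test). With TMM scaling, which moves every log2 ratio by -0.08, both counted as lower in replicate 2 (log2 ratios -0.10 and -0.12), and Mirlet7g too, so that 2 members were higher and 3 lower, beside 17.7% and 22.2% of all tested genes (39.9% in either direction). Over all tested genes 72 were higher and 54 lower, and with TMM 55 and 69. For Mirlet7a-1 and Mirlet7f-1 the intervals, 0.801 to 1.22 and 0.809 to 1.36, were too wide to show a difference of the size seen for Mirlet7g or Mirlet7b.

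**Figure D3:**
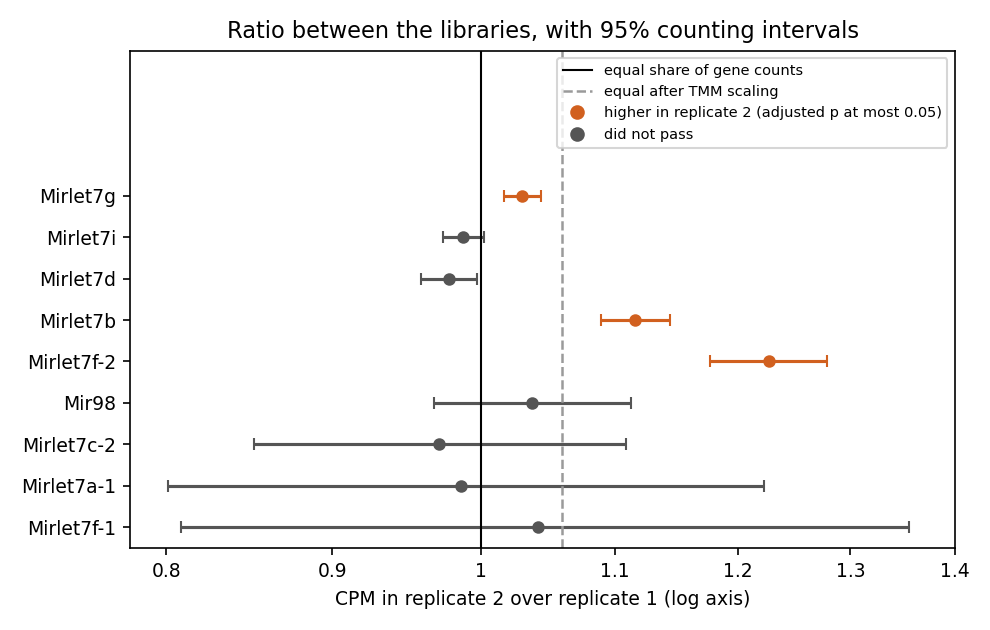
CPM in replicate 2 over replicate 1 for each member on a log axis, with 95% counting intervals. The solid line marks equal shares of gene counts and the dashed line equality after TMM scaling; Mirlet7f-2 (1.23) and Mirlet7b (1.12) lie above both lines with their intervals, and Mirlet7g (1.03) lies between them.

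The members differed little between the libraries when set beside other genes. Their median absolute log2 ratio was 0.04, against 0.39 over all 311 tested genes and 0.30 over the 146 with a mean of 100 CPM or more. With TMM scaling the medians were 0.10, 0.41 and 0.27. The ratios of the 9 members ranged from -0.04 to 0.29 on the log2 scale. Their sum was 1.02-fold higher in replicate 2 (1.02 to 1.03), and 0.967-fold (0.959 to 0.975) with TMM, so its direction was not fixed. The 6 partner genes of the clusters, from the families of miR-99 and miR-125, summed to 43151 CPM in replicate 1 and 57417 in replicate 2, or 1.33-fold. Of these, 3 were higher and 3 did not pass.

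**Figure D4:**
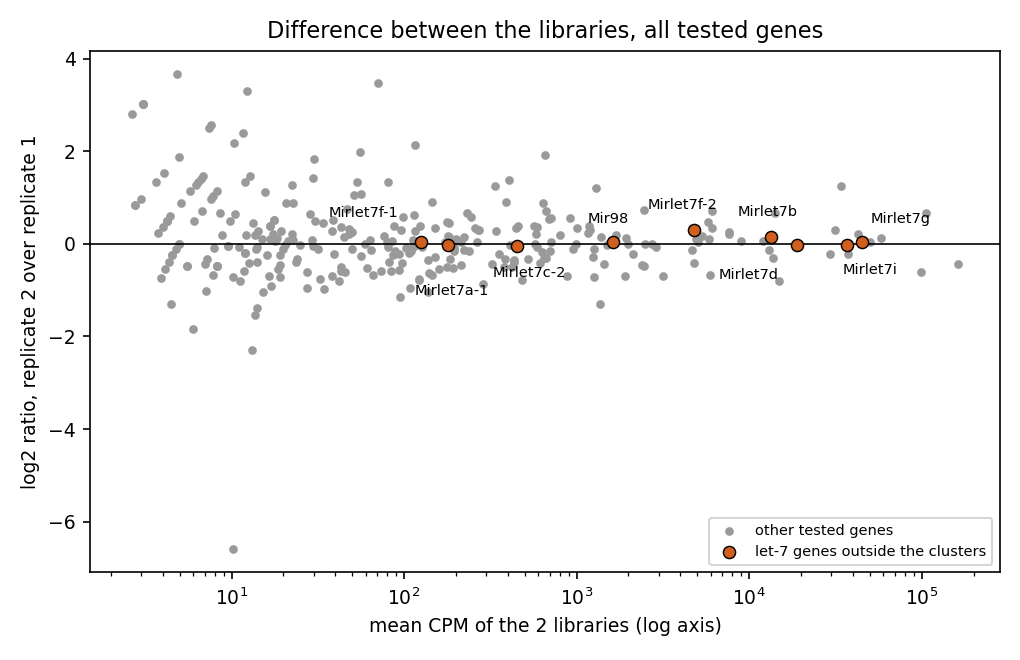
log2 ratio of replicate 2 over replicate 1 against the mean CPM of both libraries (log axis), with each point a tested gene and the 9 members in orange. The members lie between -0.04 and 0.29 over the range from 124.7 to 45057 CPM.

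Shares among the members do not depend on how the libraries are scaled. Mirlet7g gave 36.9% of the members' counts in replicate 1 (36.6 to 37.3%) and 37.1% in replicate 2 (37.0 to 37.3%). Its share and those of Mirlet7a-1, Mirlet7f-1, Mirlet7c-2 and Mir98, 5 genes in all, had overlapping intervals. The shares of the other 4 did not overlap. Mirlet7i went from 31.0% in replicate 1 to 29.9% in replicate 2 and Mirlet7d from 16.0% to 15.3%. Mirlet7b had 10.5% and 11.4%, and Mirlet7f-2 had 3.58% and 4.29%. None of these shares moved by more than 1.11 percentage points in either direction.

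With the spread between the libraries counted as noise, no member passed. An exact test by edgeR, at 1 dispersion shared by all 311 genes (a coefficient of variation of 27.9%), called 0 of 9 members, with unadjusted p-values of at least 0.610. It called 2 of all 311 genes (0.643%), and 20 had an unadjusted p under 0.05. The noise in that test comes from the same 2 libraries.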

How the data were processed

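Each deposited table holds raw counts of reads per gene for 1 library on mm10 with GENCODE M21, according to text files the authors deposited. For the aligner and the counter, nothing was given in the sources used here. The 3 count columns carry no names. From the values, the second was read as the strand of the gene, since it has the largest total over genes, and it was used. Library sizes exclude the rows without a gene, which held multi-mapping reads (75.2% and 74.4% of all reads), unmapped reads (5.97% and 6.93%) and reads with no feature (1.62% and 2.48%). CPM is counts per 1000000 gene counts. Log2 ratios used a prior count of 0.5. The rule for the members uses gene symbols alone, but the members and lists were chosen with earlier results of these data known. Named genes were the members, the other let-7 genes, the partners, overlapping and neighbouring genes, and the 3 nearest in level to Mirlet7g and Mirlet7i. Sharing was searched among annotated transcripts, not the whole genome. CAST alleles were not analysed here. The binomial step was tested on simulated data. Alternatives were other scalings, filters, prior counts and columns, edgeR's exact test, and each library left out. Software was Python 3.11.15 with scipy 1.17.1, pandas 2.3.3 and numpy 2.4.6, and R 4.3.3, for which edgeR was version 4.0.16 and DESeq2, used for size factors, 1.42.0.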

Additional observations from a re-analysis of the deposited data

Results flagged for a closer look

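Gm24111, an annotated microRNA gene on the strand opposite Mirlet7f-1, had 0 counts on its own strand and 78 in replicate 1 and 289 in replicate 2 in the opposite-strand column, which was not otherwise used. This lies above the 3 counts that a count of 0 allows. The numbers equal those of Mirlet7f-1 itself in both libraries. Gm24111 (48537825 to 48537921) spans Mirlet7f-1, so its opposite-strand column holds reads on the strand of Mirlet7f-1. Gm25927, which spans the clustered Mirlet7e on the opposite strand, likewise had 0 counts on its own strand. Its opposite-strand column held 964 and 3361, equal to the counts of Mirlet7e. At Mirlet7b, 3 reads of replicate 2 lay on the opposite strand, which is not above that limit, and at the other 8 members there were 0.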

How the results depend on the processing

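With the unstranded column the member sum was 173591 CPM in place of 121669, because reads at places with genes on both strands then counted as ambiguous and left the total, and the members held 99.8% of the let-7 counts, since Mirlet7e and Mirlet7f-1 both fell to 0. With TMM scaling the log2 ratios turned for Mirlet7g (-0.041), Mirlet7f-1 (-0.031), Mir98 (-0.032) and the member sum (-0.049), and 5 members were called. edgeR's exact test called 0 members and 2 genes in all, with 20 genes and 0 members at an unadjusted p under 0.05. DESeq2 size factors, a total over Mir symbols, floors of 1 and 50 counts and prior counts of 0.1 and 2 changed the direction or call of no member ratio. With each library alone the member sum was 120206 to 123133 CPM. Leaving out a library leaves no ratio to test. No paired analysis was possible because the series holds 1 group. Depth limits Mirlet7f-1, Mirlet7a-1 and Mirlet7c-2 most, and multi-mapping reads limit every gene with a shared arm.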
